A study of Mus musculus with 6 samples.

Results

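The acyl-CoA thioesterase genes examined here were *Acot1*, *Acot2*, *Acot3*, *Acot4*, *Acot7*, *Acot8*, *Acot9*, *Acot12* and *Acot13*. They were chosen by gene symbol, and all 9 were found among the 24421 genes listed for the series. Hepatic mRNA was sequenced from 3 wild-type (WT) C57BL/6 mice and 3 C57BL/6 mice heterozygous for a null allele of PAI-1 (*Pai-1*+/-). All 6 animals were 21 weeks old by the labels, ate standard chow without restriction, and the labels give no treatment. The study describes male C57BL/6 J mice, and the labels give the sex of the WT mice only. The heterozygotes came from a cross of *Pai-1*-/- with WT animals. Such heterozygotes lack a copy of the gene in every tissue and not in the liver alone. The series asked how a lower dose of PAI-1 changes hepatic lipid genes.

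That question could not be put to the thioesterase genes with the values used here. The 6 columns of counts per animal carry animal numbers that match no sample label, so no column was given a genotype and none was used. The fold changes and p-values of the authors' own comparison were not used either. What remained was the authors' mean normalized count of each gene, averaged over the libraries of both genotypes. It has no standard deviation, no n and no value per mouse, and a gene that differed between WT and *Pai-1*+/- livers appears only at its average. The mean normalized counts summed to 30045982, and the depth of each library was not analysed here. The genotype labels could not be checked against the values, which are averages over both genotypes.

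Acyl-CoA thioesterases cut the bond between a fatty acid and coenzyme A, giving free fatty acid and free coenzyme A. They thereby work against the acyl-CoA synthetases, and they are placed in the cytosol, mitochondria and peroxisomes, where they can adjust the supply of acyl-CoA for oxidation, lipid synthesis and signalling. The family holds enzymes of unrelated fold that share the reaction. Type I enzymes have an alpha/beta hydrolase fold, and type II enzymes have a hotdog fold. In liver, several members are known as targets of the fatty acid receptor PPAR alpha and as genes that respond to fasting.

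The 4 type I members sat side by side in a cluster on chromosome 12. In pairs, their coding sequences were identical at 75.2% to 95.2% of aligned bases, which bears on how their reads could be counted. As an illustration, the same 75 bases of coding sequence are printed for each of them, the length of a read in the study. Capitals mark bases that differ from *Acot1*. The *Acot1* stretch lies on the plus strand of mm10 at chr12:84016857-84016931, and those of *Acot2*, *Acot3* and *Acot4* are at chr12:83992579-83992653, chr12:84058498-84058572 and chr12:84043268-84043342.
Acot1: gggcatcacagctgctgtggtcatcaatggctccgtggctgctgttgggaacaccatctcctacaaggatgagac
Acot2: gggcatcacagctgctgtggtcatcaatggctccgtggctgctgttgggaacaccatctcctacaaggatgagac
Acot3: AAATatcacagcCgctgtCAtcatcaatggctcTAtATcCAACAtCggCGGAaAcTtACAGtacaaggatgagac
Acot4: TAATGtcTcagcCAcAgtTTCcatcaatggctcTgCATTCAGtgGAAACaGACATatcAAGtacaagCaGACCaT
The *Acot1* and *Acot2* stretches were identical, while *Acot3* differed from *Acot1* at 27 and *Acot4* at 39 of the 75 bases. A read from this stretch could be told apart from the other copies in *Acot3* and *Acot4* but not between *Acot1* and *Acot2*. Among blocks of this length that lie within an exon and are identical in *Acot1* and *Acot2*, the one shown is where the other copies differed most. It does not stand for the whole coding sequence. Elsewhere, *Acot1* and *Acot3* had an identical coding run of 203 bases. All sequences printed are from GENCODE M21 transcripts.

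*Acot2* departs from *Acot1* at the start of the coding sequence. Their last 3 codons before the stop differ as well. *Acot2* encodes a mitochondrial enzyme and *Acot1* a cytosolic enzyme of much the same catalytic sequence, and mitochondrial proteins typically carry a leader at the start. In the alignment, 123 coding bases of *Acot2*, or 41 codons, came before the first base aligned with *Acot1*. They are printed in capitals, followed in lower case by the first 12 aligned bases (plus strand of mm10, chr12:83987902-83988036). The first 30 coding bases of *Acot1* are given for comparison with the start codon in capitals (chr12:84009510-84009539).
Acot2: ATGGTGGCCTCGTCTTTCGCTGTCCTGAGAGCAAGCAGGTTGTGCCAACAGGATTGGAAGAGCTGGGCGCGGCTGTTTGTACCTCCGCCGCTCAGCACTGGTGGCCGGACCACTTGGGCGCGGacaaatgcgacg
Acot1: ATGgaggcgacgctgaaccttgagccctcg
The *Acot2* bases in capitals have no counterpart in the aligned *Acot1* coding sequence.

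The end of the coding sequence separates the peroxisomal members. Many peroxisomal proteins end in a signal made of a small residue, a basic residue and leucine. The last 30 coding bases are printed with the last 3 codons before the stop in capitals, first for the members placed in the peroxisome and then for cytosolic *Acot1* and *Acot12*. In mm10 they lie at chr12:84058997-84059026 for *Acot3*, chr12:84043767-84043796 for *Acot4*, chr2:164792892-164792921 on the minus strand for *Acot8*, chr12:84017350-84017379 for *Acot1* and chr13:91784751-91784780 for *Acot12*, all others on the plus strand.
Acot3: aaaaagaagacaatcccaGCAAAACTGtga
Acot4: acccacagcagagcctccTGTAGACTGtag
Acot8: aagcctcaggtgtcagagAGTAAGCTAtag
Acot1: gagtgtttgcatgtgtctCCTAAAATAtaa
Acot12: actcctgatggacttaaaAGTGTGTTAtaa
The 3 peroxisomal members ended in a leucine codon, CTG or CTA, behind a codon for a basic residue. *Acot1* ended in an isoleucine codon. *Acot12* ended in a leucine codon too, but behind a valine codon. *Acot8* shared this form of ending with *Acot3* and *Acot4*, to which its coding sequence was identical at 58.9% and 60.7% of aligned bases. Pairs across the types, of unrelated fold, ranged from 55.7% to 64.0%, so these values do not show kinship. The signal was read from the codons, and the location of the proteins was not measured.

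Expression was compared between genes as the authors' mean normalized count per kb of annotated exons, because a longer transcript collects more reads. The lengths are those of GENCODE M21, whereas the gene models on which the authors counted are not given. The counted exons can thus differ from those used as length, which limits every level per kb. All 9 members had a mean normalized count of at least 10, from 116 for *Acot9* to 8015 for *Acot12*. Together they took 0.056% of all normalized counts. Among the 12499 genes that had a mean normalized count of at least 10 and a gene model, the median level was 94.6 per kb. A percentile below is the share of these genes with a lower level per kb. The level of 8 of the 9 members was above the median gene, and that of *Acot9* was below it. The median percentile of the members was 80.0.

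The cytosolic members included the most abundant transcript. *Acot12*, a cytosolic enzyme known for hydrolysing acetyl-CoA, had a mean normalized count of 8015 and a level of 2434 per kb, at percentile 95.8. Only 523 of the 12499 genes were higher per kb, and its neighbours in the ranking were *AW112010* above and *Sdhb*, a respiratory chain subunit, below. *Acot12* alone made up 38.8% of the family's summed level per kb. *Acot13*, also named Them2, acts on long-chain acyl-CoA in the cytosol and at mitochondria and binds phosphatidylcholine transfer protein. Its mean normalized count of 1133 ranked only at place 5 in the family, but its exons span 744 bases, and its level of 1523 per kb was at place 2 and percentile 93.5. *Acot1*, a cytosolic long-chain enzyme, followed with a mean normalized count of 3042 and a level of 776 per kb, at percentile 88.7. *Acot7*, a long-chain enzyme best known from brain, had a mean normalized count of 481 and a level of 227 per kb, at percentile 69.97. *Acot12* was thus 1.60 times as high per kb as *Acot13* and 3.14 times as high as *Acot1*. Per kb of coding sequence, with the whole count divided by the coding length, the latter ratio was 1.99.

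**Figure D1:**
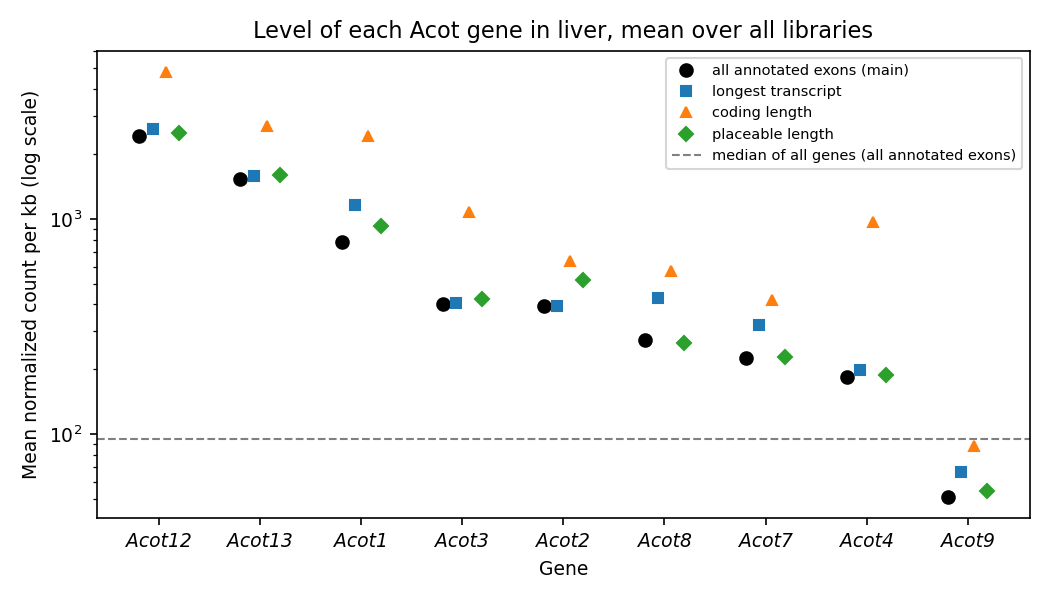
The authors' mean normalized count per kb (log axis) is plotted for each Acot gene. Lengths were taken from all annotated exons, the longest transcript, the coding sequence or the 75-base windows not found in a gene elsewhere in the genome. The dashed line is the median of all genes, 94.6 per kb of annotated exons. Acot12 was highest and Acot9 lowest with every length, while Acot4 moved most, from 184 to 970 per kb.

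The peroxisomal members lay between 184 and 403 per kb, below *Acot12*, *Acot13* and *Acot1*, and *Acot3* and *Acot8* were above cytosolic *Acot7*. *Acot3*, a peroxisomal enzyme of long-chain and medium-chain acyl-CoA, had a mean normalized count of 1387 and a level of 403 per kb, at percentile 80.4. *Acot8*, which accepts many substrates in the peroxisome, including bile acid CoA esters, had a mean normalized count of 548 and a level of 274 per kb, at percentile 73.9. *Acot4*, the peroxisomal enzyme known for hydrolysing succinyl-CoA, had a mean normalized count of 1226 and a level of 184 per kb, at percentile 65.45. The placing of *Acot4* rested on its length. Its longest transcript has 6203 bases, of which the coding sequence with its stop codon takes 1266. Per kb of coding sequence *Acot4* reached 970, beside 1070 for *Acot3*. These values divide the whole count by the coding length, since reads of the coding sequence were not counted apart. They include reads from outside the coding sequence. The ratio of *Acot3* to *Acot4* was 2.20 per kb of exons and 1.103 per kb of coding sequence. In sum, the peroxisomal members held 13.7% of the family's level per kb.

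Among the mitochondrial members, *Acot2* was well above *Acot9*. *Acot2*, an enzyme of long-chain acyl-CoA in the mitochondrial matrix, had a mean normalized count of 865 and a level of 394 per kb, at percentile 80.0. *Acot9*, a mitochondrial enzyme of the type II group, had a mean normalized count of 116 and a level of 51.2 per kb, at percentile 36.8. Both together held 7.1% of the family's summed level per kb, against 54.8% for cytosolic *Acot1*, *Acot7* and *Acot12* and 24.3% for *Acot13*. *Acot12* was 47.5 times as high as *Acot9* per kb.

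From highest to lowest per kb, the order was *Acot12*, *Acot13*, *Acot1*, *Acot3*, *Acot2*, *Acot8*, *Acot7*, *Acot4* and *Acot9*. The steps between neighbours were 1.60, 1.96, 1.92, 1.02, 1.44, 1.21, 1.23 and 3.58 times. Whether neighbours differed beyond the spread between mice was not analysed here, since the means carry no spread and the columns of single animals, which match no label, were not used. *Acot3* and *Acot2*, apart by 1.02 times, changed places when counts were divided by the windows not found in a gene elsewhere, as described below. *Acot12* was first and *Acot9* last with each of the 4 lengths and without division by length. By type, the 4 type I members held 28.0% of the family's summed level per kb and the 5 type II members 72.0%. These shares, and those by location above, were taken per kb of annotated exons only. They depend on the length used, since *Acot4*, for example, went from 184 to 970 per kb with coding length.

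The cluster on chromosome 12 runs from 83987861 to 84111349 in mm10, or 123.5 kb, with all 6 genes on the plus strand. It starts with *Acot2*, followed by *Acot1*, *Acot4*, *Acot3*, *Acot5* and *Acot6*. Levels fell sharply within it. The 4 members ranged from 184 to 776 per kb, whereas *Acot5* and *Acot6*, peroxisomal type I genes outside the list, were at 2.30 and 3.73 per kb. The mean normalized count of *Acot5* was 3.50, and that of *Acot6* was 23.95. *Acot5* starts 8.92 kb after the end of *Acot3*, so genes of very different level stood next to each other. Of the 75-base windows of *Acot5*, 13.8% also occur in a gene elsewhere, so its level is uncertain, as described below for *Acot1* and *Acot2*. The remaining members lie apart, *Acot7* on chromosome 4, *Acot8* on chromosome 2, *Acot9* on chromosome X, and *Acot12* and *Acot13* on chromosome 13.

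**Figure D2:**
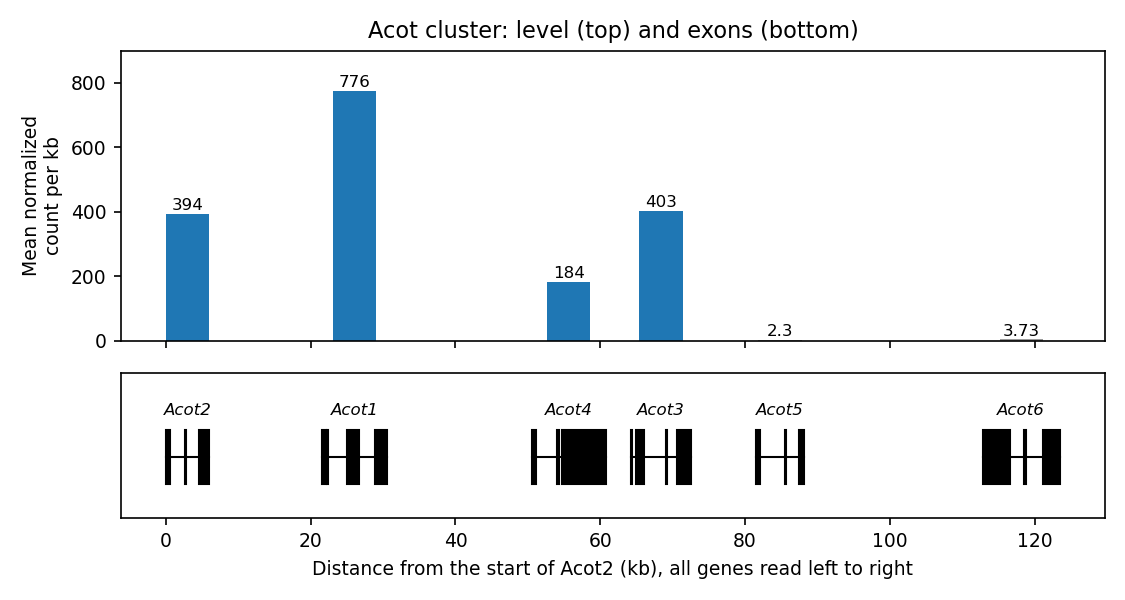
The top panel shows the authors' mean normalized count per kb of exons for the 6 genes of the cluster, blue bars for members and grey for Acot5 and Acot6, and the bottom panel shows their exons (boxes) by distance from the start of Acot2 in kb. Acot1 was highest at 776 per kb, and the last 2 genes were at 2.30 and 3.73.

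Coding sequences were aligned in pairs. *Acot1* and *Acot2* were identical at 1180 of 1239 aligned bases, or 95.2%. *Acot3* was identical to *Acot1* at 83.9% and to *Acot2* at 84.0%, and *Acot4* was the most distant of the 4 members, with 75.2% to *Acot3*, 76.3% to *Acot2* and 76.6% to *Acot1*. Pairs of type II members ranged from 58.2% to 65.0% and pairs across the types from 55.7% to 64.0%, and the ranges overlapped. Over so distant pairs the aligned part differed in length and gaps were left out of the count, which limits such values. Pairs of unrelated fold reached much the same values, so these values do not by themselves show kinship. *Acot7* and *Acot12*, at 62.1%, had a longest identical coding run of 10 bases. *Acot9* had a close relative outside the list in *Acot10*, an intronless mitochondrial thioesterase gene on chromosome 15, with 97.2% identity. The mean normalized count of *Acot10* was 1.18, against 116 for *Acot9*. Their longest identical coding stretch had 109 bases and is printed because a read of *Acot9* that lies within it also matches *Acot10*. It covers coding bases 420 to 528 in both genes, and in *Acot10* it lies on the minus strand at chr15:20666126-20666234.
Acot9: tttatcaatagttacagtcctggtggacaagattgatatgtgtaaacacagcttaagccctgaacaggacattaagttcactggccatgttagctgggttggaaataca

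The consequence for counting was measured as the share of all 75-base windows of a gene's transcripts that also occur, on either strand, in a gene elsewhere in the genome. A read that spans such a window matches both genes. Windows shared with a gene that overlaps in the genome were not counted, such as 174 windows of *Acot8* also found in *Snx21*. The share was 21.2% for *Acot2*, 14.98% for *Acot1*, 5.72% for *Acot3*, 5.29% for *Acot9* and 1.67% for *Acot4*. It was 0 for *Acot7*, *Acot8*, *Acot12* and *Acot13*. With windows of 50 bases it was 15.2% for *Acot9* and 4.83% for *Acot4*. Of 19869 protein-coding genes, 28.0% had such a window and 8.54% had more than 10% of them, as *Acot1* and *Acot2* did. Within the coding sequence the shares were larger, 49.0% in *Acot1* and 34.9% in *Acot2*. *Acot1* and *Acot2* shared 434 windows with each other, *Acot1* and *Acot3* shared 129, and *Acot3* and *Acot5* shared 154. All 120 such windows of *Acot9* were found in *Acot10*.

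**Figure D3:**
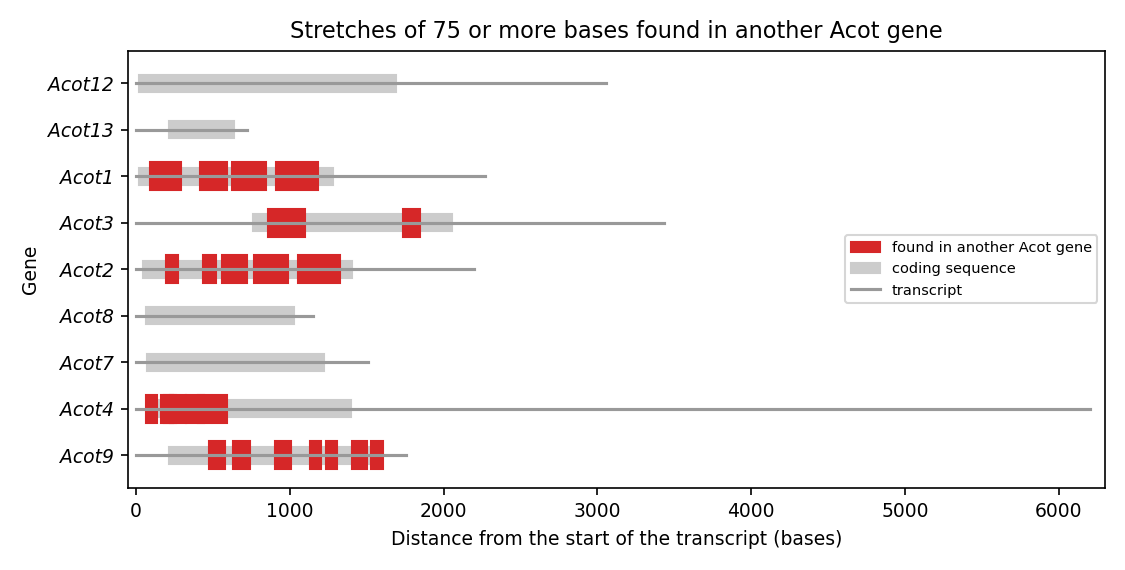
Each line is the main coding transcript of an Acot gene by distance from its start in bases, with the coding sequence in grey and stretches of at least 75 bases that also occur in another Acot gene in red. Stretches in Acot1 and Acot2 covered much of the coding sequence, and Acot7, Acot8, Acot12 and Acot13 had none.

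The table listed genes with much shared sequence at 0 more often. Of the protein-coding genes with no shared window, 16.5% were at 0 and 63.9% had a mean normalized count of at least 10. Of the 240 genes with more than 90% of their windows shared, 96.7% were at 0 and 2 genes had a mean normalized count of at least 10. How the counting treated reads with several matches is not given in the sources used here, and its part in these shares was not tested. Nor was it tested how many of these genes are not expressed in liver. In the class of *Acot1* and *Acot2*, from 10 to 25%, 41.3% of 732 genes were at 0. Each member's count was also divided by its windows not found in a gene elsewhere. *Acot2* then rose from 394 to 517 per kb and *Acot1* from 776 to 923 per kb, and the ratio of *Acot1* to *Acot2* went from 1.97 to 1.78. The same ratio was 2.96 per kb of the longest transcript and 3.802 per kb of coding sequence. With division by these windows, *Acot2* stood above *Acot3*, which was at 425 per kb. The levels of *Acot1* and *Acot2* are uncertain where reads matched both.

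**Figure D4:**
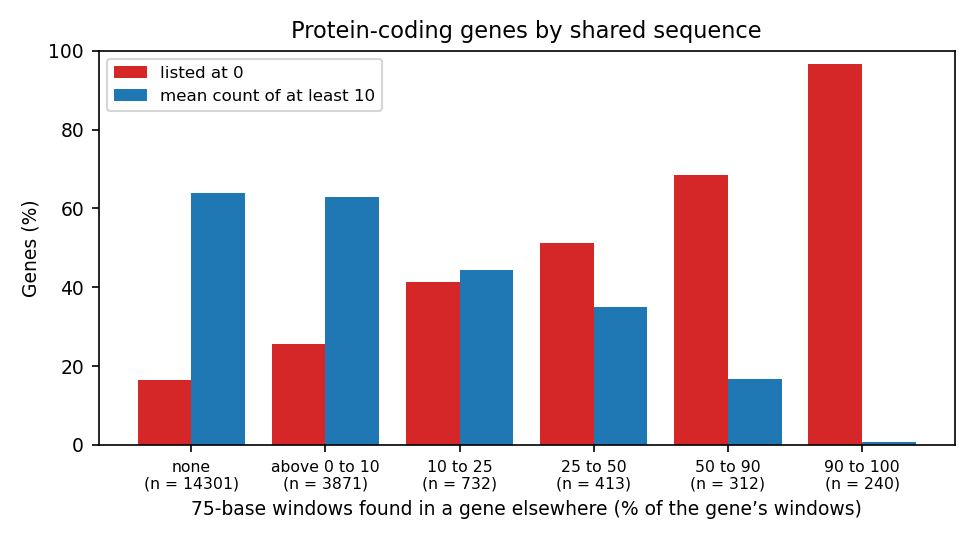
Protein-coding genes are grouped by the percentage of their 75-base windows found in a gene elsewhere, and bars give the percentage of each group listed at 0 (red) and with a mean normalized count of at least 10 (blue). Genes at 0 rose from 16.5% in the group without shared windows to 96.7% in the group above 90%.

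Exons of 4 members overlapped those of another gene. *Acot8* shares 246 exonic bases, or 12.3% of its exons, with *Snx21* on the opposite strand, which had a level of 59.3 per kb. *Acot12* shares 149 exonic bases with the antisense gene *4833422C13Rik*, at 4.57 per kb. *Acot3* and *Acot4* share 396 and 33 exonic bases with *Gm49366* on the same strand. *Acot3* and *Acot4* overlap the antisense gene *4732463B04Rik* by 312 and 615 exonic bases, and neither *Gm49366* nor *4732463B04Rik* is listed in the table. Without strand information, reads from the bases shared on opposite strands cannot be told apart, and the strand setting is not given in the sources used here. Reads from the bases shared with *Gm49366*, on the same strand, cannot be told apart by strand at all.

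The members were set beside 88 genes in 8 lists. The lists held 15 other thioesterases, 15 acyl-CoA synthetases, 8 acyl transferases, and 15 peroxisomal and 13 mitochondrial oxidation genes. The rest were 10 genes of coenzyme A breakdown and supply, 6 listed under acyl-CoA binding, *Pctp* among them, and 6 PPAR receptors and partners. Of the 88, 83 had a mean normalized count of at least 10, and their median percentile was 93.4, against 80.0 for the members. Per kb, 58 of the 83 were above the family's median of 394, 28 were above *Acot12*, and 5 were below *Acot9*, namely *Acot6*, *Acot11*, *Them6*, *Acss1* and *Ppard*. No test was made, because genes are not replicates.

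Of the 15 other thioesterases listed, 11 had a mean normalized count of at least 10, with a median of 346 per kb, and none was above *Acot12*. Over all 15, among them *Acot5*, *Acot6*, *Acot10* and *Acot11*, the median was 142 per kb. *Lypla1*, which removes palmitate from proteins, was highest at 953 per kb, and *Hibch*, the hydrolase of valine breakdown, was at 504. *Acot11*, known from brown fat, was at 43.4 per kb. *Olah*, the thioesterase of the mammary gland, had a mean normalized count of 0.15.

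The acyl-CoA synthetases, which make the substrate of the thioesterases, had a median of 649 per kb over 14 of 15 genes and a wide range. *Slc27a2*, a very-long-chain synthetase and transporter, was at 21680 per kb and *Acsl1*, the main long-chain synthetase of liver, at 7080. *Acss1*, the mitochondrial acetate enzyme, was at 4.40. The acyl transferases compete for the same substrate and had a median of 2339 per kb over 8 genes. *Crot*, which moves peroxisomal acyl groups to carnitine, was at 7860 per kb, *Baat*, which joins bile acids to amino acids, at 5756 and *Cpt1a*, the gate to mitochondrial oxidation, at 3987. *Acnat2*, a peroxisomal paralog of *Baat*, was lowest at 529, still above *Acot2* and *Acot3*. Of the 75-base windows of *Acnat2*, 21.4% also occur in a gene elsewhere, so its level is uncertain in the same way as that of *Acot2*.

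Oxidation genes stood highest. The 15 peroxisomal genes had a median of 4037 per kb, and 12 of them were above the family's median. *Ehhadh*, the peroxisomal bifunctional enzyme, was at 19140 per kb. The peroxisomal thioesterases *Acot3*, *Acot8* and *Acot4*, at 184 to 403 per kb, were all below 12 of these 15 genes and all above *Acox3* and *Abcd2*, at 81.6 and 137. The 13 mitochondrial genes had a median of 2775 per kb, and all of them were above *Acot2*, the lowest being *Hadhb* at 708. *Hadhb* had 16.7% of its 75-base windows in a gene elsewhere, so its level is uncertain too.

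Coenzyme A enzymes lay nearer to the family, with a median of 466 per kb over 10 genes. *Nudt7*, which degrades coenzyme A in peroxisomes, was at 1426 per kb and *Pank1*, which starts its synthesis, at 1534. Among acyl-CoA binding genes, *Fabp1* was at 109600 per kb and *Dbi*, the acyl-CoA binding protein, at 8742. *Pctp*, listed with them, encodes phosphatidylcholine transfer protein, the partner of *Acot13*, and is not named for acyl-CoA binding. Its level was 2111 per kb, against 1523 for *Acot13*. *Ppara*, whose product activates several members, was at 2543 per kb, while *Pparg* was at 152 and *Ppard* at 30.3.

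**Figure D5:**
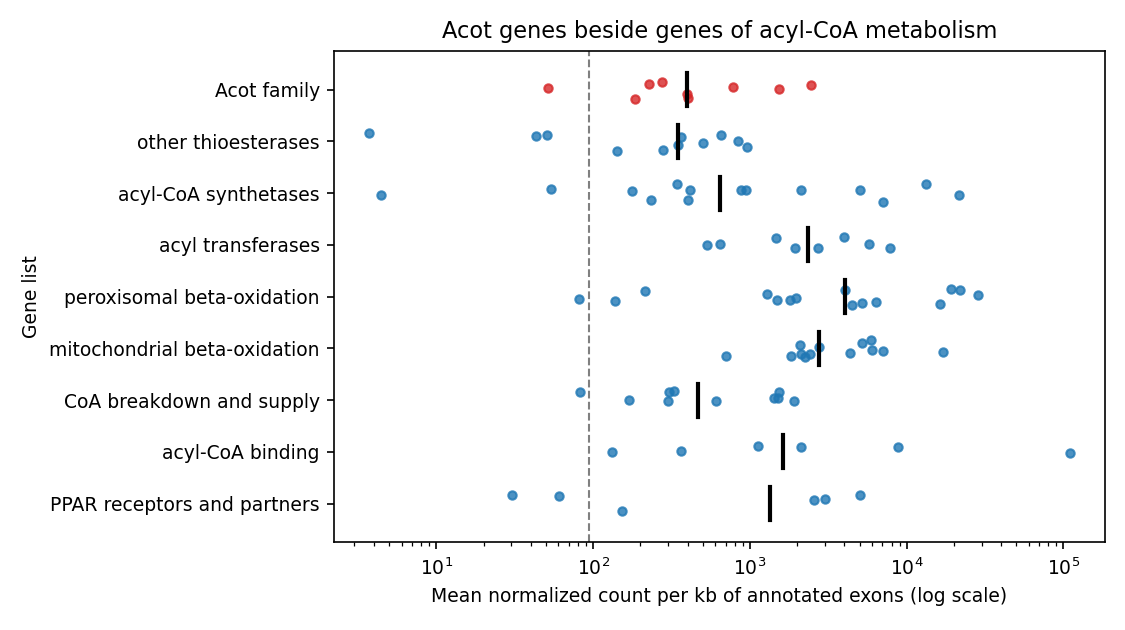
Each point is a gene, placed by the authors' mean normalized count per kb of exons (log axis), with the 9 Acot genes in red and genes of 8 lists with a mean normalized count of at least 10 in blue. Black bars are medians and the dashed line is the median of all genes, 94.6 per kb. The family's median of 394 was below those of all lists except the other thioesterases.

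The samples had the markers of liver. All 10 hepatocyte genes, such as *Alb* and *Apoa1*, had mean normalized counts from 24400 upwards. Genes of other cells were present at lower levels, with medians of 889 for 6 Kupffer cell, 780 for 6 endothelial and 532 for 6 stellate cell genes, and 20.0 for 4 lymphocyte genes. Cholangiocyte genes had a median of 71.7. The 3 adipocyte genes were all under 10, and of 4 muscle genes only *Tnnt2* was above 10, at 21.6. Of 4 red cell genes, *Alas2* had a mean normalized count of 2136, and the globin genes *Hba-a1*, *Hbb-bs* and *Hbb-bt* were listed at 0. Genes with much shared sequence were listed at 0 more often, as described above. The shared windows of the globin genes are not reported here, so their zeros were not taken as absence of globin RNA. The share of each cell type in the thioesterase values was not tested. In whole liver, fewer cells of a type and less RNA per cell cannot be told apart.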

How the data were processed

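Hepatic mRNA libraries of 3 WT and 3 *Pai-1*+/- mice were prepared with a KAPA mRNA kit and sequenced as 75-base single-end reads. The authors aligned reads to mm10 with STAR and ran DESeq2 in the RNA Express BaseSpace application. The labels also list HOMER, and versions, annotation and strand setting are not given in the sources used here. The signal used is the authors' deposited mean over libraries of counts divided by size factors. The deposited table also holds the authors' log2 fold changes, their errors and p-values, which were not used. The 6 columns of counts per animal match no label and were not used, so the planned edgeR test of genotype could not be run and no p-value is given.

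Gene models and transcripts came from GENCODE M21 (GRCm38, the assembly of mm10), matched by symbol for 96.4% of 12971 genes with a mean normalized count of at least 10. Levels were divided by the union of GENCODE M21 exons in kb, which may differ from the exons on which the authors counted. Windows of 75 bases were compared with all annotated transcripts on both strands, and introns and intergenic sequence were not searched. Coding sequences were aligned with Biopython 1.88 and MAFFT 7.526. The window search used numba 0.67.0 under Python 3.11.15, tables were handled in pandas 2.3.3 with NumPy 2.4.6, and plots came from Matplotlib 3.10.9. SciPy 1.17.1 was loaded, but no interval is given here. The window search and the percentiles were tested on simulated data. The members and lists were chosen with earlier results of these data known. Genes named are the members, the listed genes of acyl-CoA metabolism, the marker genes, genes next to a member in the ranking and genes overlapping a member, the last chosen after their values were seen. Some listed genes are not reported here.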

Additional observations from a re-analysis of the deposited data

How the results depend on the processing

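With the longest transcript as length, 6 of 9 members kept their place in the order, and with placeable length, an alternative chosen after seeing the data, 7 did. With coding length 5 did, and with no division by length 2 did. *Acot12* stayed highest and *Acot9* lowest under each of these settings, and *Acot4* ranged from place 4 to place 8. The median percentile of the members was 85.3 among all genes above 0 and 73.8 among genes of at least 100, against 80.0. The median of the pathway genes was 1495 per kb, 1981 with the longest transcript and 1359 without the filter. With windows of 50 bases, the same number of members, 5, had sequence found elsewhere, but the share of *Acot9* rose from 5.29% to 15.2% and that of *Acot4* from 1.67% to 4.83%. The planned edgeR test, DESeq2, other normalization, filters on the counts per animal and leaving out mice were not run. The columns of counts match no sample label and were used in no step. No paired analysis was possible because the columns carry no replicate number of the labels. The depth of each library and the spread between mice limit every value and were not analysed here.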
